A study of Mus musculus with 14 samples.

Results

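Cytosolic DNA sensing was followed through 10 genes, Cgas, Tmem173, Mavs, Tbk1, Ikbke, Irf3, Aim2, Ifi204, Trex1 and Nlrp3, taken from the count table by the Ensembl mouse IDs that GENCODE M21 gives for these symbols. Of the 37409 genes in the table, 9 are these genes, all 9 passed the filter on low counts, and Trex1 is not analysed here. RNA sequencing covered 14 libraries from subcutaneous tumours of C57BL/6 mice in 4 groups. Tumours were taken at day 7 after an intratumoral injection of 2E'/PTX/siPD-L1 (n = 4), 2E'/PTX/siNeg (n = 4) or D5W (n = 3). Untreated tumours were taken at day 0 (n = 3). PTX is read as paclitaxel, a drug that stabilises microtubules, and 2E' as the polymer of the series title. siPD-L1 is read as an siRNA to Cd274 and siNeg as a negative-control siRNA, and D5W is dextrose in water. All 4 groups carry the same transplanted tumour line, host cells included, and tumours given 2E' or 2E'/PTX without an siRNA are not analysed here. The age of the mice is not given in the sources used here. None of the 14 libraries is of an untreated tumour at day 7, so time after injection and the injection itself cannot be told apart in any comparison with day 0. The labels do not say that each library is a separate mouse, so p-values measure the spread between these samples.

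DNA that reaches the cytosol is bound by Cgas, an enzyme that then makes the cyclic dinucleotide cGAMP. cGAMP activates the adaptor Tmem173 (STING) on the endoplasmic reticulum, which brings in the kinases Tbk1 and Ikbke, and these phosphorylate Irf3, a transcription factor of Ifnb1 and other interferon-response genes. Mavs, the adaptor on mitochondria for the RNA helicases Ddx58 (RIG-I) and Ifih1, uses the same kinases. Aim2 binds DNA directly and builds an inflammasome, the complex that activates caspase and releases Il1b, while Ifi204 is a DNA-binding relative of Aim2. Nlrp3 builds an inflammasome in response to cell stress rather than to DNA. In tumours the route is best known for the type I interferon made by dendritic cells that take up tumour DNA.

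Sequence before the start is shown for 3 of the genes, to set side by side the promoter of the gene with the largest difference from day 0 (Nlrp3), that of an adaptor that was lower in D5W tumours (Mavs) and that of the DNA sensor that makes cGAMP, which passed no test (Cgas). The RefSeq promoter table of GRCm38.p6 matched 7 of the 9 genes, and each sequence here is the 250 bases before the start, 5′ to 3′ on the gene's strand. They lie at chr11:59541319-59541568 on the plus strand for the upstream one of 2 Nlrp3 starts, chr2:131233813-131234062 on the plus strand for Mavs and chr9:78443238-78443487 on the minus strand for Cgas. Capitals mark the only match found in these windows to 5 motifs searched on both strands.
Nlrp3: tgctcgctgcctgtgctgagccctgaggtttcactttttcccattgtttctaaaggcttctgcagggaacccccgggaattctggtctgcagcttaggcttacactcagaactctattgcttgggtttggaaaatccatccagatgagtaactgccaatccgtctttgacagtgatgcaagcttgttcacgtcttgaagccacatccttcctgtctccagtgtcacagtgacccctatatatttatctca
Mavs: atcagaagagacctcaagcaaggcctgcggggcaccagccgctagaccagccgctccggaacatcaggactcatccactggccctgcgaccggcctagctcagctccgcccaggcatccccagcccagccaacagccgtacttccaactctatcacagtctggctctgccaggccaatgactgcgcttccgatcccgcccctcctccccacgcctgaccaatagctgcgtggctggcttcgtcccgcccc
Cgas: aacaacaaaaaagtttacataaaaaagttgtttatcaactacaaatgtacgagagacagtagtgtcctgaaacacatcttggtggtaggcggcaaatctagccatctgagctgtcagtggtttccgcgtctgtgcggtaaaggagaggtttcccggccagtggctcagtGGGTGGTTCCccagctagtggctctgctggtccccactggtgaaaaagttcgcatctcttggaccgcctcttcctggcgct
The match in Cgas is to 1 form of the NF-kB site, GGG and TTCC with 3 bases between them, and its first base lies at position -81 from the start. Of 32851 RefSeq windows of this length, 4.65% hold such a match. The other motifs searched were the interferon response element core (GAAA and GAAA with 2 bases between, in 2.98% of windows), TTCNNNGAA (STAT, 7.02%), TGANTCA (AP-1, 6.75%) and TGACGT (part of the cyclic AMP element, 6.47%). None of them has a match in the windows of the 7 genes. The GC content is 65.2% in the Mavs window and 48.0% in the Nlrp3 window.

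The shallowest library held 60.2 M counts and the deepest 85.9 M, and 17141 genes were tested. One label names the cells as CT26, a colon carcinoma line, while the protocol says that B16F10 cells, a melanoma line, were inoculated. Pigment-cell genes were high in every library (median 7915 CPM for Dct and 3764 CPM for Pmel, where CPM is counts per 1 M scaled by TMM), and the intestinal genes Epcam and Krt20 were at medians of 0.052 and 0.019 CPM. Other intestinal markers were higher: the 7 listed summed to between 7.05 and 9.80 CPM a library, and 3 of them passed the filter. The 7 melanocyte markers summed to between 17037.5 and 21057.3 CPM. D5W replicate 3 lay farthest from the other libraries on the first principal component, which held 31.2% of the variance, and siPD-L1 replicate 1 had the lowest TMM factor (0.844). Results that rest on these 2 libraries are given with and without them. Cd274, the siRNA target, ran from 15.8 to 20.8 CPM in siPD-L1 tumours and from 17.6 to 31.6 CPM in siNeg tumours, a log2 difference of -0.50 ± 0.16 (standard error; 95% interval -0.84 to -0.17) that did not pass (edgeR adjusted p = 0.515).

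Per kilobase of exon, the adaptors, Tbk1 and Irf3 were the most abundant of the 9 genes in every group, and the order among them differed by day. Tbk1 averaged 11.9 ± 1.16 RPKM in siPD-L1 tumours, 11.2 ± 0.73 in siNeg tumours and 12.1 ± 1.82 in D5W tumours, and 9.99 ± 0.33 RPKM at day 0. Tmem173 averaged 10.1 ± 1.03, 10.96 ± 0.38 and 10.2 ± 1.17 RPKM in siPD-L1, siNeg and D5W tumours, and 13.3 ± 0.084 RPKM at day 0. Mavs averaged 9.92 ± 0.67, 10.5 ± 0.64 and 9.37 ± 0.86 RPKM in those day 7 groups, and 11.5 ± 0.51 RPKM at day 0. Tbk1 had the highest mean in each day 7 group, within 1 SD bars that overlap those of Tmem173, and was behind Tmem173 and Mavs at day 0. Irf3 was the lowest of the 4 in every group, at 7.55 ± 0.28 RPKM in siPD-L1 tumours and 9.09 ± 0.41 RPKM at day 0. Its place rests on the length used: at day 0, lengths of the longest transcript put Irf3 at 15.4 RPKM, second to Tmem173 at 15.9 and above Tbk1 at 12.9 and Mavs at 12.6. Over the 14 libraries Ikbke averaged 2.47 ± 0.26 RPKM and Cgas 2.12 ± 0.21 (SD, n = 14). Nlrp3 averaged 1.78 ± 1.42 RPKM, a spread that covers its neighbours, ahead of Ifi204 at 1.09 ± 0.64 and Aim2 at 0.264 ± 0.089. The order of Nlrp3 and Ifi204 differed by day as well. Nlrp3 averaged 2.09 ± 1.32 RPKM and Ifi204 1.11 ± 0.49 RPKM in siPD-L1 tumours, 1.85 ± 0.85 and 1.45 ± 0.74 RPKM in siNeg tumours, and 2.83 ± 2.00 and 1.18 ± 0.86 RPKM in D5W tumours. These spreads overlap, whereas at day 0 Nlrp3 averaged 0.240 ± 0.057 RPKM and Ifi204 0.506 ± 0.022 RPKM.

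Against day 0, Nlrp3 rose and Tmem173 fell in all 3 day 7 groups, Irf3 fell in siPD-L1 and D5W tumours, and Mavs fell in D5W tumours. Cgas, Tbk1, Ikbke, Aim2 and Ifi204 did not pass in any of the 3 comparisons. With adjusted p under 0.05 over all tested genes, 3 of the 9 genes were called in siPD-L1 tumours (1 higher, 2 lower), 2 in siNeg tumours (1 higher, 1 lower) and 4 in D5W tumours (1 higher, 3 lower). Of all 17141 genes, 21.9% were called in siPD-L1 against day 0 (11.5% higher, 10.4% lower). The share was 18.4% in siNeg against day 0 (10.5% higher, 7.91% lower) and 21.5% in D5W against day 0 (11.8% higher, 9.69% lower). Without D5W replicate 3 and siPD-L1 replicate 1, the calls among the 9 genes numbered 4 in siPD-L1, 4 in siNeg and 3 in D5W tumours. The siNeg count was 0 without day 0 replicate 1 and 1 without day 0 replicate 2 or 3 or siNeg replicate 1 or 3, and the D5W count was 2 without day 0 replicate 3 or D5W replicate 3. The 3 comparisons share the day 0 libraries, so their calls are not separate evidence. The share of all genes whose libraries do not overlap with day 0 was not computed. Where such a separation is described here, it cannot be read as particular to the gene.

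**Figure D1:**
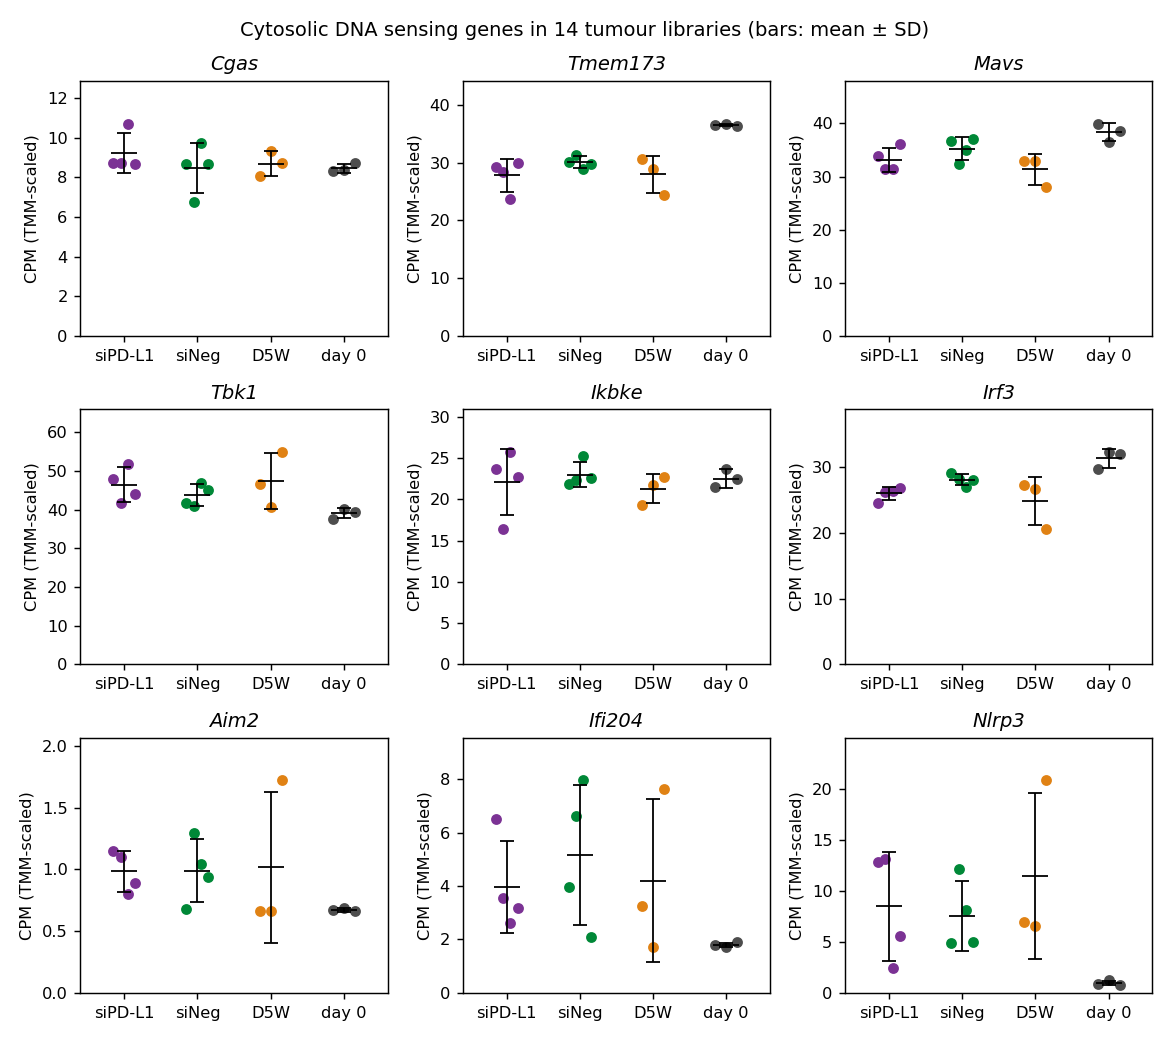
TMM-scaled CPM of 9 cytosolic DNA sensing genes in each of 14 tumour libraries (points), by group, with bars at the mean and 1 SD either side. All Nlrp3 points of the 3 day 7 groups lie at or above 2.39 CPM and the day 0 points lie at or below 1.23 CPM, while Cgas and Ikbke overlap between all groups.

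Cgas, the DNA sensor that makes cGAMP, did not pass against day 0 in any group (ENSMUSG00000032344, chromosome 9, 78430526 to 78443237, minus strand, GRCm38). It had 8.70, 8.74, 10.7 and 8.67 CPM in siPD-L1 tumours and 8.67, 6.77, 9.75 and 8.69 CPM in siNeg tumours. In D5W tumours it had 8.08, 9.30 and 8.70 CPM, and at day 0 it had 8.31, 8.36 and 8.72 CPM. siPD-L1 replicate 3 was the highest library and siNeg replicate 2 the lowest, and the groups overlap. The log2 fold changes against day 0 were 0.12 ± 0.12 in siPD-L1 tumours, 0.00 ± 0.12 in siNeg tumours and 0.04 ± 0.13 in D5W tumours (adjusted p of 0.501, 0.994 and 0.854). Their 95% intervals lay between -0.26 and 0.38, which bounds a difference without showing that the levels were equal.

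Tmem173, the STING adaptor, fell at day 7 in each of the 3 groups (ENSMUSG00000024349, chromosome 18, 35733679 to 35740554, minus strand). It had 29.2, 28.3, 23.7 and 30.0 CPM in siPD-L1 tumours and 30.1, 31.4, 28.9 and 29.8 CPM in siNeg tumours. The level was 30.7, 28.8 and 24.4 CPM in D5W tumours and 36.5, 36.8 and 36.3 CPM at day 0. Every day 7 library lay below every day 0 library, and siPD-L1 replicate 3 and D5W replicate 3 were the lowest. The log2 fold change was -0.39 ± 0.09 in siPD-L1 tumours (adjusted p = 0.00645), -0.28 ± 0.09 in siNeg tumours (adjusted p = 0.0374) and -0.39 ± 0.09 in D5W tumours (adjusted p = 0.0118). The call in siPD-L1 tumours held under all 17 alternative settings. That in siNeg tumours was lost in 8 of 17, among them when any day 0 library or siNeg replicate 1, 3 or 4 was left out (adjusted p of 0.0689 to 0.117), and that in D5W tumours was lost in 1 of 16, scaling by library totals only (log2 fold change -0.30, adjusted p = 0.0897).

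Mavs, the mitochondrial adaptor for RNA sensing, was lower in D5W tumours than at day 0 (ENSMUSG00000037523, chromosome 2, 131234063 to 131248025, plus strand). It had 33.8, 31.4, 31.4 and 36.1 CPM in siPD-L1 tumours and 36.7, 32.3, 35.01 and 37.0 CPM in siNeg tumours. In D5W tumours it had 33.0, 33.0 and 28.0 CPM, and at day 0 it had 40.0, 36.6 and 38.6 CPM. D5W and siPD-L1 libraries all lay below day 0, whereas 2 of the siNeg libraries reached the lowest day 0 library. The log2 fold change was -0.21 ± 0.08 in siPD-L1 tumours (adjusted p = 0.0683), -0.12 ± 0.08 in siNeg tumours (adjusted p = 0.3045) and -0.29 ± 0.08 in D5W tumours (adjusted p = 0.0252). The D5W call was lost in 8 of 16 settings, including without D5W replicate 3 (-0.22, adjusted p = 0.0988), without day 0 replicate 1 (-0.26, adjusted p = 0.107) and without day 0 replicate 3 (-0.29, adjusted p = 0.0665). In siPD-L1 tumours Mavs passed under 6 of 17 other settings, among them DESeq2, limma voom and the fit without D5W replicate 3 and siPD-L1 replicate 1, and in siNeg tumours under 0 of 17.

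The kinases downstream of both adaptors did not pass in any comparison with day 0 in the reported fit. Tbk1, the kinase that phosphorylates Tmem173 and Irf3 (ENSMUSG00000020115, chromosome 10, 121546455 to 121586787, minus strand), had 48.0, 41.6, 51.9 and 44.0 CPM in siPD-L1 tumours and 41.8, 40.9, 47.0 and 45.1 CPM in siNeg tumours. The level was 46.6, 40.7 and 54.9 CPM in D5W tumours and 37.6, 40.0 and 39.5 CPM at day 0. Every day 7 library lay above every day 0 library, by a narrow margin in the lowest of each group. The log2 fold changes were 0.25 ± 0.10 in siPD-L1 tumours (adjusted p = 0.0821), 0.16 ± 0.10 in siNeg tumours (adjusted p = 0.267) and 0.28 ± 0.10 in D5W tumours (adjusted p = 0.0670). Tbk1 passed under 2 of 17 other settings in siPD-L1, 2 of 17 in siNeg and 2 of 16 in D5W tumours, among them without siPD-L1 replicate 2 and without D5W replicate 2 in their own comparisons, and Ikbke passed under none. Ikbke, the related kinase that is inducible by NF-kB (ENSMUSG00000042349, chromosome 1, 131254343 to 131279606, minus strand), averaged 22.1 ± 4.03 CPM in siPD-L1 tumours, 23.0 ± 1.53 CPM in siNeg tumours, 21.3 ± 1.73 CPM in D5W tumours and 22.5 ± 1.10 CPM at day 0 (SD). Its log2 fold changes against day 0 were -0.03 ± 0.12 in siPD-L1, 0.03 ± 0.12 in siNeg and -0.08 ± 0.13 in D5W tumours (adjusted p of 0.903, 0.893 and 0.6805), and siPD-L1 replicate 2 was the lowest library at 16.4 CPM.

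Irf3, the transcription factor at the end of the route, was lower at day 7 in siPD-L1 and D5W tumours (ENSMUSG00000003184, chromosome 7, 44997648 to 45002848, plus strand). It had 24.6, 26.2, 26.3 and 26.8 CPM in siPD-L1 tumours and 29.1, 28.2, 27.0 and 28.0 CPM in siNeg tumours. In D5W tumours it had 27.3, 26.6 and 20.6 CPM, and at day 0 it had 29.7, 32.2 and 32.0 CPM. All day 7 libraries lay below day 0, the siPD-L1 libraries also lay below all siNeg libraries, and D5W replicate 3 was the lowest. The log2 fold change was -0.27 ± 0.09 in siPD-L1 tumours (adjusted p = 0.0389), -0.16 ± 0.09 in siNeg tumours (adjusted p = 0.227) and -0.33 ± 0.09 in D5W tumours (adjusted p = 0.0211).

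These Irf3 calls rest on the settings. Without D5W replicate 3 and siPD-L1 replicate 1 together, Irf3 passed in all 3 groups. Its log2 fold changes there were -0.24 in siPD-L1, -0.16 in siNeg and -0.22 in D5W tumours (edgeR adjusted p of 0.00912, 0.0470 and 0.0432). In siNeg tumours Irf3 passed under 2 of 17 settings, this fit and that of the compared groups alone. The siPD-L1 call was lost in 11 of 17, including without any 1 of the day 0 or siPD-L1 libraries (adjusted p of 0.0511 to 0.126), and the D5W call in 7 of 16, including without day 0 replicate 2, day 0 replicate 3 or D5W replicate 3 (adjusted p of 0.0720, 0.0650 and 0.0604). With the trend of fold change on transcript GC content and length removed, the Irf3 log2 fold change was -0.04 in siPD-L1 tumours (adjusted p = 0.740) and -0.12 in D5W tumours (adjusted p = 0.308). Irf3 has the highest GC content of the 9 genes, at 56.7% of its longest transcript, against 53.9% for Mavs, 51.2% for Tmem173 and 45.4% for Tbk1. It overlaps Bcl2l12 on the opposite strand (8954 counts over the 14 libraries, against 28525 for Irf3), and the strand setting of the counting is not given in the sources used here.

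**Figure D2:**
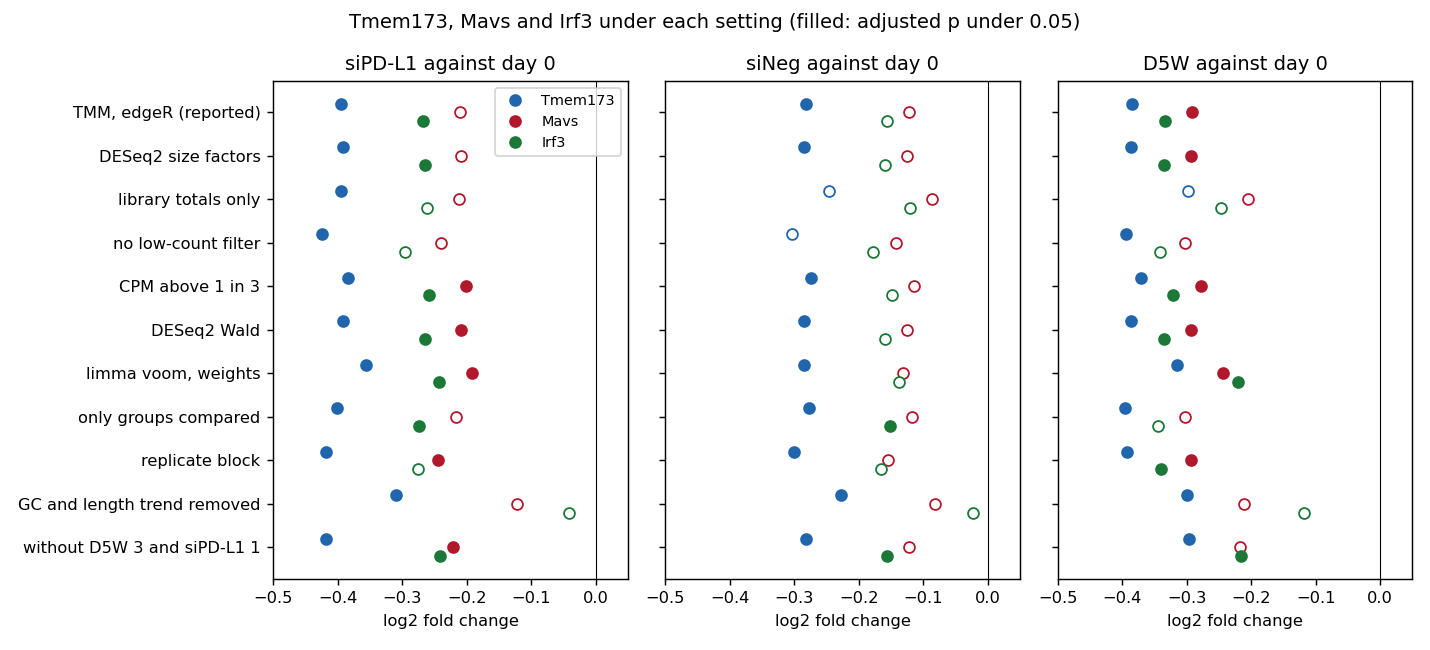
Log2 fold change against day 0 (x axis) of Tmem173, Mavs and Irf3 under the reported fit and 10 alternative settings (y axis), with filled points where the adjusted p is under 0.05. Tmem173 in siPD-L1 tumours stays filled in every setting drawn, and Irf3 comes closest to 0 with the GC and length trend removed.

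Nlrp3, the stress-activated inflammasome sensor, had the largest difference of the 9 genes (ENSMUSG00000032691, chromosome 11, 59541568 to 59566956, plus strand). It had 12.8, 13.1, 2.39 and 5.61 CPM in siPD-L1 tumours and 4.85, 12.2, 8.11 and 4.97 CPM in siNeg tumours. The level was 6.96, 6.60 and 20.8 CPM in D5W tumours and 0.904, 1.23 and 0.787 CPM at day 0. Every day 7 library lay above every day 0 library, with D5W replicate 3 the highest and siPD-L1 replicate 3 the lowest of the 11. The fitted level was 8.78 times that of day 0 in siPD-L1 tumours (log2 fold change 3.13 ± 0.68, adjusted p = 0.00733), 7.77 times in siNeg tumours (2.96 ± 0.67, adjusted p = 0.0109) and 11.9 times in D5W tumours (3.57 ± 0.70, adjusted p = 0.00579). Without D5W replicate 3 and siPD-L1 replicate 1, the log2 fold changes were 2.87 in siPD-L1, 2.96 in siNeg and 2.81 in D5W tumours (adjusted p of 0.00873, 0.00629 and 0.0213). The call held in 17 of 17 settings in siPD-L1, 16 of 17 in siNeg and 16 of 16 in D5W tumours, and the siNeg call was lost without day 0 replicate 1 (log2 fold change 2.91, adjusted p = 0.0583).

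Aim2 and Ifi204, the DNA-binding receptors of the AIM2-like family, did not pass against day 0. Ifi204 (ENSMUSG00000073489, chromosome 1, 173747293 to 173766943, minus strand) had 6.50, 3.56, 2.62 and 3.16 CPM in siPD-L1 tumours and 3.97, 6.60, 7.95 and 2.11 CPM in siNeg tumours. In D5W tumours it had 3.25, 1.73 and 7.62 CPM, and at day 0 it had 1.78, 1.74 and 1.89 CPM. All siPD-L1 and siNeg libraries lay above day 0, and D5W replicate 2 did not. The log2 fold change was 1.13 ± 0.51 in siPD-L1 tumours (adjusted p = 0.127), 1.52 ± 0.51 in siNeg tumours (adjusted p = 0.0558) and 1.22 ± 0.54 in D5W tumours (adjusted p = 0.1175). In siNeg tumours it passed under 7 of 17 other settings, for example without D5W replicate 3 and siPD-L1 replicate 1 (1.52, adjusted p = 0.0154). Aim2, the DNA sensor of the inflammasome (ENSMUSG00000037860, chromosome 1, 173350879 to 173466040, plus strand), was the lowest of the 9 genes, with 38 to 134 counts a library. It had 1.15, 1.10, 0.798 and 0.893 CPM in siPD-L1 tumours and 0.679, 1.29, 1.04 and 0.935 CPM in siNeg tumours. The level was 0.662, 0.666 and 1.72 CPM in D5W tumours and 0.671, 0.688 and 0.660 CPM at day 0. D5W replicate 3 was the highest library while D5W replicates 1 and 2 lay within the day 0 range. The log2 fold change was 0.55 ± 0.32 in siPD-L1 tumours, 0.55 ± 0.32 in siNeg tumours and 0.59 ± 0.34 in D5W tumours (adjusted p of 0.239, 0.256 and 0.225), and the D5W value was -0.02 without D5W replicate 3. Aim2 overlaps Cadm3 on the opposite strand, with 963 counts for Aim2 and 225 for Cadm3 over the 14 libraries, and reads of the overlap may not be told apart. Reads of Ifi204 and its near-identical relatives can be split in counting, so their levels are uncertain.

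**Figure D3:**
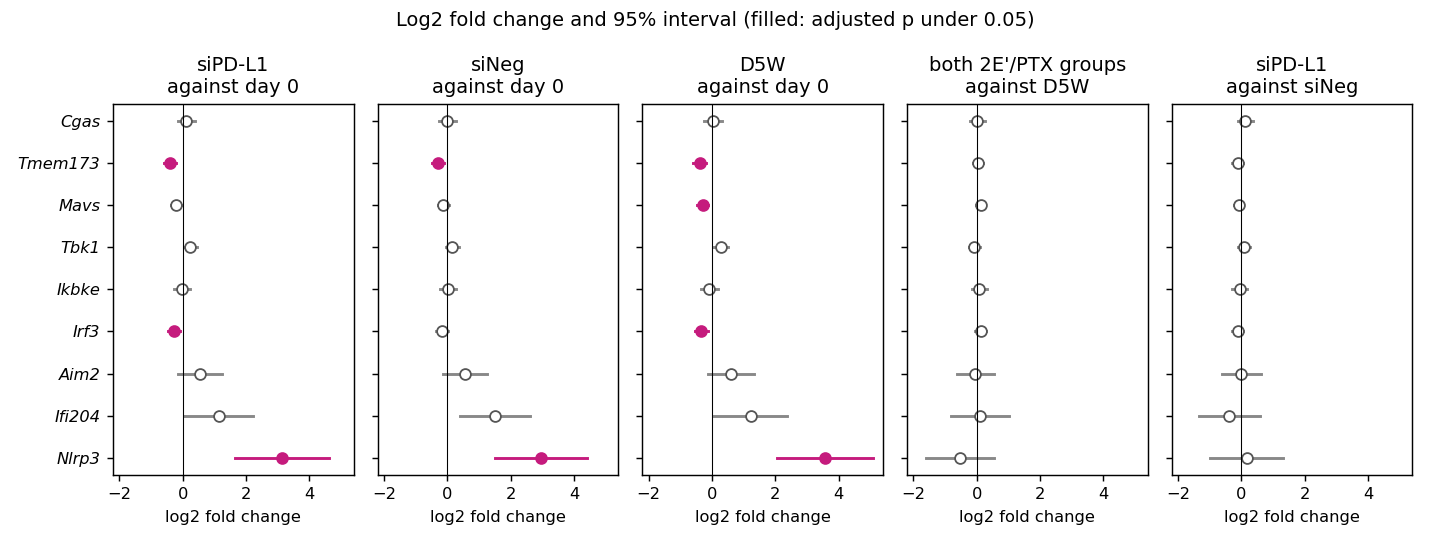
Fitted log2 fold change of 9 cytosolic DNA sensing genes with its 95% interval, in 5 comparisons, with filled points where the edgeR adjusted p is under 0.05. Filled points appear in the comparisons with day 0, at Nlrp3 on the right and at Tmem173, Mavs and Irf3 left of 0, and the points of the comparisons between day 7 groups are all open.

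Between the day 7 groups, none of the 9 genes passed. Comparisons with D5W ask what 2E'/PTX with an siRNA adds to an injection of the vehicle. The siPD-L1 and siNeg tumours together (n = 8) against D5W (n = 3) gave log2 differences between -0.52 for Nlrp3 and 0.13 for Mavs, with a lowest adjusted p of 0.515 and no unadjusted p under 0.05, where 0.251% of all genes were called (0.0233% higher, 0.228% lower). The 95% intervals were -0.12 to 0.21 for Tmem173, -0.21 to 0.25 for Cgas, -0.26 to 0.11 for Tbk1 and -0.04 to 0.29 for Irf3, and they were -1.59 to 0.55 for Nlrp3. The interval of Ifi204 was -0.82 to 1.04 and that of Aim2 -0.63 to 0.55, wider than those of Tmem173, Cgas, Tbk1 and Irf3. No gene of the 9 was called in siNeg against D5W (lowest adjusted p = 0.332, for Mavs at 0.17 ± 0.08, the 1 gene of 9 with an unadjusted p under 0.05), where 0.105% of genes were called (0.0233% higher, 0.0817% lower). In siPD-L1 against D5W the lowest adjusted p was 0.896, no gene of the 9 had an unadjusted p under 0.05, and 0.0292% of genes were called (0% higher, 0.0292% lower). DESeq2 and limma voom also called none of the 9 genes in these 3 comparisons. Nlrp3 changes sign here with D5W replicate 3, at -0.61 in siNeg and -0.43 in siPD-L1 tumours with it and 0.15 and 0.32 without it.

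siPD-L1 against siNeg tests what the siRNA to Cd274 adds, and edgeR called 0 of 17141 genes (0% in either direction), while 1471 had an unadjusted p under 0.05, DESeq2 called 58 and limma voom 3. Among the 9 genes 0 had an unadjusted p under 0.05, and the lowest adjusted p was 0.689, for Irf3, which averaged 26.0 ± 0.97 CPM in siPD-L1 tumours and 28.1 ± 0.88 CPM in siNeg tumours (SD, n = 4 each). Its log2 difference was -0.11 ± 0.08 with an interval of -0.28 to 0.06, and it was the 1 gene of 9 whose groups did not overlap, where 5.74% of all tested genes had groups that did not overlap. Tmem173 differed by -0.11 ± 0.08, Mavs by -0.09 ± 0.07, Tbk1 by 0.09 ± 0.09 and Cgas by 0.12 ± 0.11. The interval of Nlrp3 ran from -0.98 to 1.33 and that of Ifi204 from -1.35 to 0.58.

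Spread among the 11 day 7 libraries separated the genes into a variable and a steady set. The highest library was 8.70 times the lowest for Nlrp3, 4.60 times for Ifi204 and 2.60 times for Aim2, and between 1.32 and 1.58 times for the other 6 genes. At day 0 the coefficient of variation over 3 libraries was 23.6% for Nlrp3 and at most 4.89% for the other 8 genes. The variable genes were the inflammasome and AIM2-like genes, and the steady ones were Cgas, the adaptors, the kinases and Irf3. The high end of Aim2 was D5W replicate 3, with 134 counts and 1.72 CPM, ahead of siNeg replicate 2 at 1.29 CPM. The same ratio was not computed over all tested genes or over genes of like abundance. The split therefore cannot be read as particular to these genes.

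The variable genes varied together with leukocyte markers across the day 7 libraries, which are described here without a test since the points share libraries and scaling. Nlrp3 followed the summed CPM of 10 macrophage markers (Pearson r = 0.899, n = 11), Ifi204 that of 7 T cell markers (r = 0.857) and of 3 pan-leukocyte markers (r = 0.844), and Aim2 those same T cell and leukocyte sums (r = 0.81 and 0.773). Macrophage sums ran from 75.1 to 176 CPM in siPD-L1 tumours and from 108 to 259.5 CPM in siNeg tumours. They ran from 156 to 256 CPM in D5W tumours and from 188 to 228 CPM at day 0. The day 0 sums lay within the siNeg and D5W ranges, and of the 9 macrophage markers tested against day 0 none was called higher in any day 7 group and 1 was called lower in siPD-L1 tumours. Itgam is listed at 0 in all 14 libraries, and the other macrophage markers had counts in each library. T cell sums ran from 1.80 to 3.43 CPM in siPD-L1 tumours and from 1.96 to 5.46 CPM in siNeg tumours. They ran from 1.54 to 5.00 CPM in D5W tumours and from 1.35 to 2.19 CPM at day 0. None of the 3 leukocyte markers was called against day 0 in any group, and 1 of the 7 T cell markers was called higher in siNeg tumours. Markers of other cell types differed from day 0 too. Of 4 B cell markers 1 was called lower in siPD-L1 and in D5W tumours, and 0 in siNeg tumours. Of 7 melanocyte markers 1 was called higher and 1 lower in each group. For scale, 11.5%, 10.5% and 11.8% of all genes were called higher in siPD-L1, siNeg and D5W tumours, and 10.4%, 7.91% and 9.69% lower. Of 4 endothelial markers 2 were called higher than at day 0 in siPD-L1, 1 in siNeg and 4 in D5W tumours, and their sums ran from 47.0 to 65.4 CPM in siPD-L1, from 44.7 to 55.2 CPM in siNeg and from 45.4 to 66.7 CPM in D5W tumours, and from 27.7 to 35.8 CPM at day 0. Of the 2 NK cell markers tested 1 was called higher in siPD-L1 and in siNeg tumours, and 0 in D5W tumours. None of 5 fibroblast and 5 erythroid markers was called. The fibroblast sums reached 313 CPM in siPD-L1, 149 CPM in siNeg and 819 CPM in D5W tumours, and 137 CPM at day 0, and the erythroid medians were -1.79 in siPD-L1, -3.38 in siNeg and -2.60 in D5W tumours as log2 fold changes. Nlrp3 did not follow the macrophage sum alone. Over the day 7 libraries it had r = 0.795 with the leukocyte, 0.684 with the neutrophil and 0.683 with the T cell sum. It also had r = -0.658 with the melanocyte, 0.642 with the fibroblast and 0.581 with the endothelial sum. Of the steady genes Mavs had r = 0.801 and Irf3 0.68 with the sum of 7 melanocyte markers, and Ikbke -0.763 with the erythroid sum. Cgas had r = -0.725 with the dendritic cell, -0.715 with the B cell and -0.673 with the macrophage sum. Other pairs of a gene and a marker sum are not listed here. In bulk tumour RNA, fewer cells of a type and less RNA per cell cannot be told apart, and the part of cell number in these levels was not tested.

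**Figure D4:**
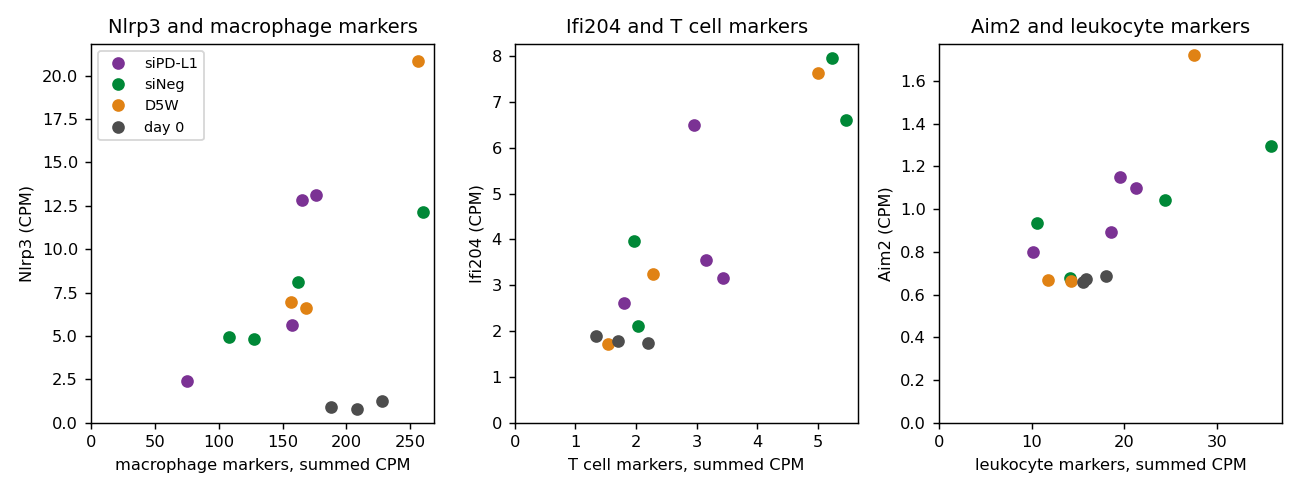
CPM of Nlrp3, Ifi204 and Aim2 (y axes) against the summed CPM of macrophage, T cell and leukocyte markers in turn (x axes), 1 point a library, coloured by group. Among the 11 day 7 libraries Nlrp3 is higher where the macrophage sum is higher, and the day 0 libraries sit at or below 1.23 CPM of Nlrp3 at macrophage sums of 188 to 228 CPM.

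Over all 14 libraries, the genes most like Nlrp3 in log2 CPM were Areg, an epidermal growth factor receptor ligand (r = 0.992), and Il1b, the cytokine that the inflammasome releases (r = 0.98). Those most like Ifi204 were Slfn5, a Schlafen family gene induced by interferon (r = 0.979), and Ifi205, a paralog of Ifi204 (r = 0.961). Irf3 was most like Ap5s1 (r = 0.98), Tmem173 most like Nkiras2 (r = 0.97), Mavs most like Zfp768 (r = 0.955), and Tbk1 and Ikbke most like Cspp1 and Kiz (r = 0.948 each). Aim2 followed Dscam (r = 0.925) and Cgas followed Prickle2 (r = 0.857), the weakest of the 9. Predicted genes and pseudogenes were left out of this ranking. Each gene named is the highest of the rest, or the next highest for Il1b and Ifi205, and describes these libraries. Among the 9 genes themselves over the day 7 libraries, Mavs and Irf3 had r = 0.766, Aim2 and Nlrp3 0.76, and Tmem173 and Tbk1 -0.759. Tbk1 and Irf3 had r = -0.723, Aim2 and Ifi204 0.722, Irf3 and Aim2 -0.673, and Tmem173 and Mavs 0.672. The remaining pairs were weaker than these.

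Among the partners of Nlrp3 and Aim2, Nlrc4 rose and Pycard fell at day 7 in all 3 groups. Of 10 inflammasome partners and products tested, 2 were higher and 1 lower in each group against day 0, and the median log2 fold changes of the list were 0.11 in siPD-L1, 0.37 in siNeg and 0.37 in D5W tumours. Over all tested genes the median log2 fold change was 0.0144 in siPD-L1, 0.0065 in siNeg and 0.0025 in D5W tumours against day 0, which is the value to set beside each list's median. Of all tested genes, 11.5% were called higher and 10.4% lower in siPD-L1, 10.5% and 7.91% in siNeg, and 11.8% and 9.69% in D5W tumours. These shares are to be set beside the called counts of each list, here and below. Nlrc4, an inflammasome sensor of bacterial protein, averaged 1.30 ± 0.23, 1.05 ± 0.25 and 1.20 ± 0.49 CPM in siPD-L1, siNeg and D5W tumours and 0.311 ± 0.11 CPM at day 0. Its log2 fold changes were 2.08 ± 0.32, 1.76 ± 0.32 and 1.96 ± 0.33 in those groups (adjusted p of 0.000675, 0.00223 and 0.00151). Pycard, the adaptor that joins Aim2 or Nlrp3 to caspase, averaged 15.2 ± 0.94, 16.6 ± 1.10 and 14.7 ± 2.84 CPM in siPD-L1, siNeg and D5W tumours and 21.2 ± 0.55 CPM at day 0. Its log2 fold changes were -0.49 ± 0.11, -0.35 ± 0.11 and -0.53 ± 0.12 in those groups (adjusted p of 0.00672, 0.0362 and 0.00734). Il1b, their product, rose on the log2 scale by 2.44 ± 0.64, 2.38 ± 0.64 and 2.65 ± 0.66 in siPD-L1, siNeg and D5W tumours (adjusted p of 0.0200, 0.0252 and 0.0177). Il1b had 27.9, 28.9, 5.51 and 13.9 CPM in siPD-L1 tumours and 11.5, 33.5, 20.1 and 8.35 CPM in siNeg tumours. In D5W tumours it had 17.9, 16.3 and 31.9 CPM, and at day 0 it had 3.59, 4.34 and 2.66 CPM. The Nlrc4 calls held in every setting, as did the Pycard calls in siPD-L1 and D5W tumours, and the Pycard call in siNeg tumours was lost in 9 of 17, including without any day 0 library or siNeg replicate 1, 3 or 4 (adjusted p of 0.0710 to 0.113). The Il1b calls were lost without any day 0 library in siPD-L1 and siNeg tumours, without day 0 replicate 1 or 3 in D5W tumours (adjusted p of 0.0561 to 0.0954), and also without siNeg replicate 3 (0.0530) and D5W replicate 3 (0.0752) in their own comparisons. Without D5W replicate 3 and siPD-L1 replicate 1, 3 of the 10 genes were called in siPD-L1, 5 in siNeg and 2 in D5W tumours.

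Besides Aim2 and Ifi204, 10 AIM2-like receptors had a row, 6 were tested, and all 6 lay above 0 in each comparison with day 0. Ifi206 and Ifi213 went down to 0.0888 and 0.117 CPM at day 0 and passed the filter on low counts only through day 7 libraries. Their direction is thus partly set by that filter, and both are among the siNeg calls. The counts and medians of this list include both genes, and no median without them was computed. In siPD-L1 tumours 0 of 6 were called (median log2 fold change 1.41), or 6 when siPD-L1 and day 0 were fitted alone, in siNeg tumours 4 of 6 (2.13) and in D5W tumours 3 of 6 (1.32). Mndal, a DNA-binding member of the family, averaged 3.41 ± 1.28, 6.31 ± 2.91 and 4.16 ± 2.21 CPM in siPD-L1, siNeg and D5W tumours and 1.52 ± 0.18 CPM at day 0. Its log2 fold change of 2.06 ± 0.43 in siNeg tumours (adjusted p = 0.00563) held in all 17 settings. In D5W tumours 0 of the 6 was called without D5W replicate 3 or any 1 of the day 0 libraries, in siPD-L1 tumours 0 or 1 without any 1 library, and in siNeg tumours 1 without day 0 replicate 3 and up to 5 without another library. Without D5W replicate 3 and siPD-L1 replicate 1 together the counts were 0 in siPD-L1, 6 in siNeg and 0 in D5W tumours.

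Among nucleases and other guards against self nucleic acid, Dnase2a fell in all 3 groups. In siPD-L1 tumours 1 of 8 was higher and 4 were lower, in siNeg tumours 2 were higher and 1 lower, and in D5W tumours 1 was higher and 3 lower. Dnase2a, the lysosomal DNase, was 12.4 ± 1.11, 12.6 ± 0.80 and 12.4 ± 1.20 CPM in siPD-L1, siNeg and D5W tumours and 15.8 ± 0.81 CPM at day 0. Its log2 fold changes were -0.35 ± 0.09, -0.33 ± 0.09 and -0.35 ± 0.10 in those groups (adjusted p of 0.0163, 0.0266 and 0.0254). These calls were lost in 2 of 17, 8 of 17 and 8 of 16 settings, and each of them without day 0 replicate 2. Adar, an RNA-editing enzyme that marks self RNA, was 78.3 ± 9.09 CPM in siNeg tumours and 58.5 ± 0.57 CPM at day 0 (0.42 ± 0.08, adjusted p = 0.00344, called in all 17 settings). It was the 1 higher gene in siPD-L1 tumours (0.25 ± 0.08, adjusted p = 0.0403). The 1 higher gene in D5W tumours, and the other one in siNeg tumours, was Dnase1l3, a secreted DNase with 1, 1 and 3 counts at day 0 and 3 to 21 counts in the day 7 libraries. It passed the filter on low counts through the day 7 groups, and its siNeg call was lost in 8 of the 14 settings that tested it. Scaled by library totals only, the called genes of this list numbered 0 of 8 in siPD-L1, 2 in siNeg and 1 in D5W tumours. Without day 0 replicate 1 they numbered 1, 1 and 0 in siPD-L1, siNeg and D5W tumours, and with 1 of the other libraries left out they were 2 to 4, 1 or 2, and 1 to 4. Without D5W replicate 3 and siPD-L1 replicate 1, 0 were higher and 4 lower in siPD-L1, 2 higher and 4 lower in siNeg, and 0 higher and 2 lower in D5W tumours. The shares of all tested genes called lower were 10.4% in siPD-L1, 7.91% in siNeg and 9.69% in D5W tumours. Near those shares, 1 of 11 genes for cGAMP handling and Tmem173 control was lower in siPD-L1 and in siNeg tumours, and 0 in D5W tumours. That gene was Surf4, a cargo receptor that returns STING to the endoplasmic reticulum, at -0.49 ± 0.09 in siPD-L1 tumours (adjusted p = 0.00176) and -0.41 ± 0.09 in siNeg tumours (adjusted p = 0.00570), both called in all 17 settings.

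Upstream of Mavs, 1 of 7 RIG-I-like receptors and regulators was higher in siPD-L1 tumours, 4 in siNeg tumours, and 1 higher and 1 lower in D5W tumours. A count of 1 of 7 is near the share of all genes called higher in siPD-L1 (11.5%) and D5W tumours (11.8%), against 10.5% in siNeg tumours. Trim25, a ubiquitin ligase that activates RIG-I, rose in all 3 on the log2 scale, by 0.64 ± 0.13, 0.78 ± 0.13 and 0.53 ± 0.13 (adjusted p of 0.00351, 0.00121 and 0.0135 in siPD-L1, siNeg and D5W tumours). The D5W call was lost once the trend on GC and length was removed, and without day 0 replicate 1 or 2 (adjusted p of up to 0.0594). Ddx58, the RIG-I helicase itself, averaged 29.8 ± 9.79 CPM in siNeg tumours and 15.1 ± 0.90 CPM at day 0 (0.98 ± 0.21, adjusted p = 0.00649), and its relative Dhx58 averaged 7.27 ± 2.51 and 3.57 ± 0.25 CPM in those groups (1.02 ± 0.20, adjusted p = 0.00406). Around Tbk1, 13 TRAF, scaffold and IKK genes gave 3 higher and 1 lower in siPD-L1, 6 and 1 in siNeg, and 1 and 2 in D5W tumours. With 1 library left out the called genes numbered 2 to 7 in siPD-L1, 2 to 5 in siNeg and 1 to 4 in D5W tumours. The siNeg count was 2 with a replicate block and without any day 0 library or siNeg replicate 1, 3 or 4, the siPD-L1 count 2 without any day 0 library or siPD-L1 replicate 1 or 3 and 7 without siPD-L1 replicate 2, and the D5W count 1 without day 0 replicate 1. Chuk, a kinase of the NF-kB route, rose by 0.40 ± 0.07, 0.37 ± 0.07 and 0.41 ± 0.08, and Traf2, a ubiquitin ligase adaptor, fell by 0.35 ± 0.07, 0.44 ± 0.07 and 0.33 ± 0.08 on the log2 scale in siPD-L1, siNeg and D5W tumours. The Chuk calls held in every setting, and the Traf2 call held in siNeg tumours. In D5W tumours the Traf2 call was lost with library totals (adjusted p = 0.228), with no filter on low counts (0.0667) and without day 0 replicate 1 (0.0555), and in siPD-L1 tumours with library totals (0.0786).

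Beside Irf3, Rel, an NF-kB subunit of immune cells, rose in all 3 groups. It averaged 15.5 ± 1.88, 16.3 ± 1.92 and 21.4 ± 4.10 CPM in siPD-L1, siNeg and D5W tumours and 7.38 ± 0.18 CPM at day 0. Its log2 fold changes were 1.07 ± 0.14, 1.14 ± 0.14 and 1.53 ± 0.14 in those groups (adjusted p of 0.000187, 0.000139 and 1.78e-05), called in every setting. Irf7, the interferon-induced relative of Irf3, averaged 10.4 ± 5.26 CPM in siNeg tumours and 2.85 ± 0.17 CPM at day 0 (1.87 ± 0.37, adjusted p = 0.00458, called in all 17 settings). In siPD-L1 tumours its change of 1.16 ± 0.37 (adjusted p = 0.0376) was lost in 8 of 17 settings, including without any day 0 library or siPD-L1 replicate 1. Of the 10 transcription factors tested, 2 were higher in siPD-L1, 4 in siNeg and 1 in D5W tumours, with none lower. Over all tested genes 11.5%, 10.5% and 11.8% were called higher in those groups, and 10.4%, 7.91% and 9.69% lower. The D5W count of 1 of 10 is near that share, and a list of 10 is too short to read from none lower.

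Of 15 interferon and Irf3 target genes tested, 4 were higher than at day 0 in siPD-L1 tumours (median log2 fold change of the list 0.44), 9 in siNeg tumours (0.86) and 1 in D5W tumours (0.42), with none lower. The shares of all tested genes called higher were 11.5%, 10.5% and 11.8% in those groups, and 10.4%, 7.91% and 9.69% were called lower. Oas1a, an antiviral enzyme, averaged 10.6 ± 0.72, 14.1 ± 2.83 and 8.42 ± 1.01 CPM in siPD-L1, siNeg and D5W tumours and 7.79 ± 0.26 CPM at day 0 (0.86 ± 0.14 in siNeg, adjusted p = 0.000940). On the log2 scale Usp18, an inhibitor of the interferon receptor, rose by 1.69 ± 0.32 (adjusted p = 0.00328) and Mx2, an antiviral GTPase, by 1.44 ± 0.31 (adjusted p = 0.00599) in siNeg tumours, and these 3 siNeg calls held in all 17 settings. The siPD-L1 count was 0 without day 0 replicate 3, siPD-L1 replicate 1 or siPD-L1 replicate 3, the siNeg count 6 without day 0 replicate 1 or 3, and the D5W count 0 without day 0 replicate 3 and 4 without D5W replicate 2. Compared directly, siPD-L1 against siNeg, 0 of the 15 genes passed and all 15 lay below 0 (median -0.52), so a difference between these groups is not shown. In siNeg against D5W, 0 of the 15 passed in the reported fit and 12 lay above 0 (median 0.43), with Oas1a closest (edgeR adjusted p = 0.0502). Of the 7 RIG-I-like genes and the 10 transcription factors 0 passed there, so a difference from D5W is not shown either. Ifnb1, the interferon that Irf3 turns on, was under the filter and untested, with 3, 10, 6 and 4 counts in siPD-L1 tumours and 7, 4, 6 and 4 counts in siNeg tumours. D5W tumours had 11, 9 and 8 counts, and day 0 tumours had 1, 0 and 1. All day 7 libraries held more Ifnb1 counts than any day 0 library, at a depth where such counts carry a wide counting error.

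Of 12 other DNA sensors and DNA-binding proteins, 4 were higher in siPD-L1, 2 in siNeg and 1 in D5W tumours, with none lower. Among all tested genes 11.5%, 10.5% and 11.8% were called higher in those groups, and 10.4%, 7.91% and 9.69% lower. The D5W count of 1 of 12 is near that share. The siPD-L1 count was 1 without any day 0 library or siPD-L1 replicate 1 or 3 and 0 with the GC and length trend removed, the siNeg count was 0 without day 0 replicate 1, and the D5W count 0 without day 0 replicate 1 or 2. Prkdc, the DNA-dependent protein kinase, was higher in all 3, with log2 fold changes of 0.60 ± 0.11 in siPD-L1, 0.46 ± 0.11 in siNeg and 0.44 ± 0.11 in D5W tumours (adjusted p of 0.00173, 0.00825 and 0.0131). With the GC and length trend removed these values were 0.21, 0.15 and 0.01 and none was called, and without day 0 replicate 1 the siNeg and D5W calls were lost, the D5W call also without day 0 replicate 2. Zbp1, a sensor of left-handed nucleic acid, was 3.27 ± 1.71 CPM in siNeg tumours and 1.01 ± 0.10 CPM at day 0 (1.69 ± 0.44, adjusted p = 0.0173), a call lost in 5 of 17 settings that include leaving out any day 0 library or siNeg replicate 3. In siPD-L1 tumours the calls of Lrrfip1 (0.36 ± 0.12, adjusted p = 0.0413) and Mre11a, a nuclease of DNA break repair (0.20 ± 0.06, adjusted p = 0.0423) were lost in 7 and 12 of 17 settings.

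**Figure D5:**
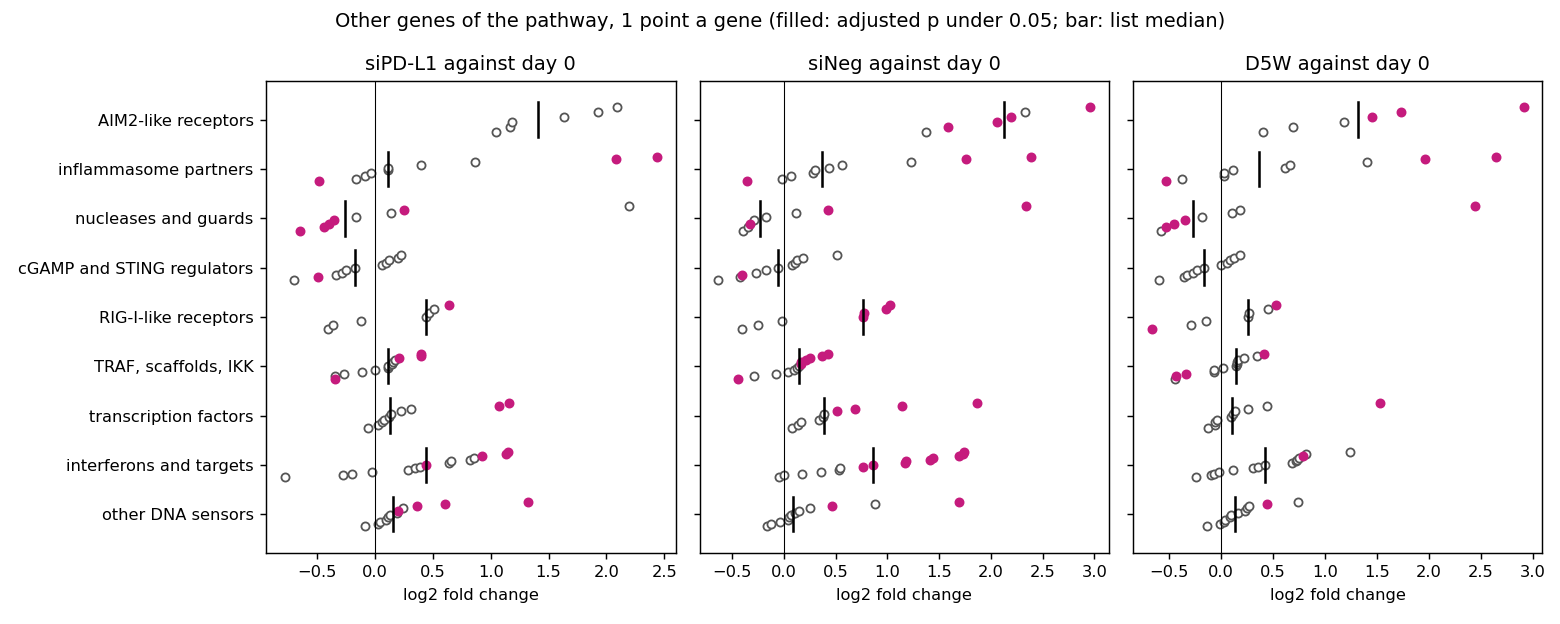
Log2 fold change against day 0 (x axis) of the other genes of the pathway by list (y axis), 1 point a tested gene, filled where the adjusted p is under 0.05, with a bar at the list's median. The AIM2-like medians are 1.41 in siPD-L1, 2.13 in siNeg and 1.32 in D5W tumours. They include Ifi206 and Ifi213, which passed the filter on low counts only through day 7 libraries. The interferon list has 4, 9 and 1 filled points in siPD-L1, siNeg and D5W tumours.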

How the data were processed

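Per the labels' protocols, RNA of 14 tumour samples was extracted with a column kit and made into stranded libraries. The authors deposited raw counts per Ensembl gene for each library. The submitters' processing notes name FastQC 0.11.3, STAR, featureCounts, edgeR and GRCm38, while the sources used here give neither the annotation release nor the strand setting. IDs were matched to GENCODE M21 (37386 of 37409, with 0.00187% of counts in the rest). From the deposited counts, edgeR 4.0.16 in R 4.3.3 computed TMM-scaled CPM and a quasi-likelihood fit with 1 coefficient a group over all 14 libraries, after filterByExpr left 17141 genes. Benjamini-Hochberg adjusted p under 0.05 over those genes is a call. Standard errors come from the fold change and its F value, intervals are 95%, and RPKM divides by the union of exons. Likeness used log2 CPM with a prior count of 2 and left out predicted genes and pseudogenes. The scripts were tested on simulated data. Alternatives were DESeq2 1.42.0, limma 3.58.1 voom, other scalings and filters, a replicate block, the trend of fold change on GC content and length of the longest transcript removed, the compared groups alone and each library left out. The joint omission of D5W replicate 3 and siPD-L1 replicate 1 was chosen after seeing the data. The members and gene lists were chosen with earlier results of these data known. The rule named all members, Cd274, up to 3 genes of each list with the smallest p in each comparison, of which some are described, and for each member the 2 genes with the highest correlation. The labels state no pairing of same-numbered samples, so numbers are used to name samples only, and the check made on them cannot exclude a pairing.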

Additional observations from a re-analysis of the deposited data

Results flagged for a closer look

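In groups of 4 libraries, a library was picked out when its gap to the nearest of the others exceeded Dixon's 95% critical share of the group's range. Of 44 such groups looked at, 5 held one, where chance picks out about 1 in 20.

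Cgas in siPD-L1 replicate 3 was at 10.7 CPM, the highest of its group, with a gap of 0.963 of the range to the other 3 libraries, which lay between 8.67 and 8.74 CPM. The same library had the lowest Nlrp3 of the group at 2.39 CPM. The summed erythroid markers of siPD-L1 replicate 2 were the highest of their group at 349.6 CPM (gap 0.891), and its summed melanocyte markers were the lowest at 17125.5 CPM (gap 0.937). In siNeg replicate 2, the summed neutrophil markers were the highest of the group at 10.54 CPM (gap 0.966), and so were the summed intestinal epithelium markers at 8.06 CPM (gap 0.9). The part of these libraries in the results was not tested beyond the fits without each library.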

How the results depend on the processing

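Against day 0, D5W called 3691 genes and 2361 with library totals, 2320 with no filter, 2459 with the GC and length trend removed, 2237 with only the compared groups and 2360 without D5W replicate 3 and siPD-L1 replicate 1. siNeg called 3158, and 1774 (totals), 2038 (no filter), 6890 (voom) and 5953 (only the groups). siPD-L1 called 3756, and 2077 (totals) and 2471 (trend removed). siNeg against D5W called 18, and 76 (no filter), 29 (CPM above 1), 35 (trend), 459 (DESeq2), 310 (voom), 1 (only the groups) and 5 (without both). siPD-L1 against D5W called 5, and 60 (totals), 39 (no filter), 17 (CPM above 1), 183 (DESeq2), 22 (voom), 1 (only the groups) and 8 (without both). Both 2E'/PTX groups against D5W called 43, and 119 (totals), 97 (no filter), 87 (trend), 365 (DESeq2), 153 (voom), 20 (only the groups) and 8 (without both). siPD-L1 against siNeg called 0, and 58 (DESeq2), 3 (voom) and 1 (without both). Of the 9 members, D5W against day 0 called 4, and 1 (totals) or 2 (no filter, trend, only the groups). siNeg called 2, and 1 (totals, no filter), 4 (voom, without both) or 5 (only the groups). siPD-L1 called 3, and 5 (voom).

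Leaving out 1 library, genes called ran from 1350 to 4031 (D5W against day 0), 1281 to 2719 (siNeg), 1653 to 4107 (siPD-L1), 0 to 123 (siNeg against D5W), 0 to 10 (siPD-L1 against D5W), 16 to 166 (both against D5W) and 0 to 1 (siPD-L1 against siNeg), and members called from 2 to 6, 0 to 2 and 2 to 3 in D5W, siNeg and siPD-L1 against day 0.

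Same-numbered samples had correlations of -0.322 to 0.248 over 19 pairs (median -0.014), 6 of them above 0.1. The 54 pairs with different numbers had -0.444 to 0.42 (median -0.002), 12 of them above 0.1. Deviations from means of 3 or 4 libraries cannot exclude a pairing, and the labels state none. With a replicate block, siNeg against D5W called 5 genes, siPD-L1 against D5W 0, both against D5W 3 and siPD-L1 against siNeg 1.

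No called member changed direction. Uncalled ones that did gave these log2 values. Aim2 was -0.0169 in D5W against day 0 without both. It was 0.048 (block), 0.44 (voom) and 0.53 (without both) in both groups against D5W. In siPD-L1 against siNeg it was 0.00373 (DESeq2 size factors and DESeq2), 0.0276 (block) and 0.0655 (voom). Cgas was -0.0602 in D5W against day 0 (trend). In siNeg against day 0 it was -0.00131 (DESeq2 size factors), -0.0185 (no filter), -0.0700 (trend) and -0.000668 (DESeq2). With library totals it was -0.0439 in both and -0.000735 in siPD-L1 against D5W. Ikbke was 0.0106 in D5W (totals) and -0.0942 in siNeg (trend) against day 0. Nlrp3 without both was 0.15 in siNeg, 0.0535 in siPD-L1 and 0.10 in both groups against D5W, and -0.0931 in siPD-L1 against siNeg. In both against D5W, Tbk1 was 0.0271 (voom) and 0.0359 (without both). Tmem173 there was -0.0234 (totals), -0.00536 (voom) and -0.0541 (without both). The cause was not tested.

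With 1 library left out, values that changed direction had these ranges. Aim2 ran from -0.0168 to 0.82 (D5W against day 0), -0.27 to 0.57 (both against D5W) and -0.15 to 0.15 (siPD-L1 against siNeg). Cgas ran from -0.0169 to 0.0857 (D5W against day 0), -0.0722 to 0.0958 (siNeg against day 0) and -0.0251 to 0.0776 (both against D5W). Ifi204 ran from -0.0701 to 1.05 (siNeg against D5W) and -0.26 to 0.86 (both). Ikbke ran from -0.0169 to 0.0647 (siNeg against day 0), -0.11 to 0.0951 (siPD-L1 against day 0) and -0.14 to 0.0639 (siPD-L1 against siNeg). Nlrp3 ran from -0.94 to 0.15 (siNeg against D5W), -0.79 to 0.23 (both), -0.72 to 0.32 (siPD-L1 against D5W) and -0.12 to 0.51 (siPD-L1 against siNeg). In both against D5W, Tbk1 ran from -0.17 to 0.0439 and Tmem173 from -0.0420 to 0.12. Aim2 had the fewest counts of the members, 38 to 134 a library, and no setting varied the depth.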
